A study of Mus musculus with 8 samples.

Results

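Matrix metalloproteases and their tissue inhibitors were examined in whole mouse eyes. The set holds 9 genes, namely the proteases Mmp2, Mmp3, Mmp9, Mmp13 and Mmp14 and the inhibitors Timp1, Timp2, Timp3 and Timp4. Its members were all probe sets of an Affymetrix mouse array whose platform annotation names 1 of these symbols: 21 of 22626 probe sets, for 9 of 12393 named genes. Total RNA had been made from eyes with Trizol and an RNeasy clean-up and hybridised to 8 arrays, 2 (I and II) in each of 4 groups. The groups are wild type at 5 days, KPAW at 5 days, wild type at 1 month and KPAW at 1 month. The labels do not expand KPAW, give no allele or treatment for it, and name a strain (C57Bl6) only for the 5-day wild type. They do not say whether arrays I and II are separate animals, so every p-value measures only the spread between these arrays.

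Matrix metalloproteases are zinc enzymes that cut collagens, gelatins, proteoglycans and other proteins of the extracellular matrix. Most are secreted as inactive proenzymes, and Mmp14, which sits in the cell membrane, activates proMmp2 together with Timp2. The tissue inhibitors bind the active site of the enzymes in equal number, and Timp3 differs from the others in being held in the matrix. In the eye these proteins take part in growth and wound repair of the cornea and sclera, in outflow of aqueous humour, and in the upkeep of Bruch's membrane beneath the pigment epithelium, where Timp3 is deposited.

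Promoters of 7 of the 9 genes were found in the RefSeq table (build GRCm38.p6). Those of Mmp2 and Mmp9 were not in it. The 250 bases that end just before the annotated start are shown for 4 genes whose levels the results below turn on: Mmp3 (chr9:7445572-7445821, plus strand), Mmp14 (chr14:54431348-54431597, plus strand), Timp1 (chrX:20869916-20870165, plus strand) and Timp3 (chr10:86300162-86300411, plus strand). Each is written 5′ to 3′, with matches to 3 motifs in capitals. The motifs were searched on both strands. The first was TGANTCA, the letters bound by AP-1, the dimer of Fos and Jun proteins. The second was TATAAA, the TATA box. The third was GGGCGG, the GC box, which reads CCGCCC on the opposite strand.
Mmp3: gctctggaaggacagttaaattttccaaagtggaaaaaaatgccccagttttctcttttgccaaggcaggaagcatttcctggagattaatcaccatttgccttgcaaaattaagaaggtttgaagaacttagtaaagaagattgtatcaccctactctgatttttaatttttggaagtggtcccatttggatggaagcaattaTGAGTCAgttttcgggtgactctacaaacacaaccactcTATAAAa
Mmp14: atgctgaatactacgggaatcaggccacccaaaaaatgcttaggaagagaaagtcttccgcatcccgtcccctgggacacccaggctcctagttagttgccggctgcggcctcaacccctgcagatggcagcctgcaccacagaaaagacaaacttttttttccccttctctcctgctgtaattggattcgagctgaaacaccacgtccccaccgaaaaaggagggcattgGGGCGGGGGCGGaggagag
Timp1: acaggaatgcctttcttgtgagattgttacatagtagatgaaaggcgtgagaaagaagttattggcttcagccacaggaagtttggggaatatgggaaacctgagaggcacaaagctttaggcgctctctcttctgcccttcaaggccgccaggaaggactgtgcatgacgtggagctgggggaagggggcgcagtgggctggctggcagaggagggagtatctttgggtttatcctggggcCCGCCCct
Timp3: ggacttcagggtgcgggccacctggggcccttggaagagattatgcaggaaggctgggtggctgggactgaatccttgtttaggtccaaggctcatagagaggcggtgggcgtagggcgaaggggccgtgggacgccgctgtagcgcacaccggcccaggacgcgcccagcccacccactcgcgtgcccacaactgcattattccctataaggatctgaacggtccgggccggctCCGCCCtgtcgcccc
In Mmp3 the capitals mark TGAGTCA, which begins 46 bases before the start, and a TATA box that begins 7 bases before it. In Mmp14 they mark a pair of adjoining GC boxes that begin 19 and 13 bases before the start. Timp1 and Timp3 each held 1 GC box on the minus strand, 8 and 15 bases before the start. Of the promoters not printed, that of Mmp13 held TGACTCA 35 bases and a TATA box 16 bases before the start, that of Timp2 held a GC box 37 bases before it, and that of Timp4 held none of the 3 motifs. Of 32851 promoters in the table, 6.75% held TGANTCA, 12.4% held TATAAA and 32.7% held GGGCGG. A match describes letters only and shows no binding. In the same annotation Timp1, Timp3 and Timp4 lie within the synapsin genes Syn1, Syn3 and Syn2, while Timp2 lies within no other gene. Mmp13 and Mmp3 belong to a row of Mmp genes on chromosome 9 that runs Mmp13, Mmp12, Mmp1b, Mmp3, Mmp1a, Mmp10, Mmp8, Mmp27, Mmp20 and Mmp7.

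Of the 21 member probe sets, 17 passed the filter on low signal, 6 of 8 for proteases and 11 of 13 for inhibitors. The 4 left out were the probe set of Mmp13, the dimmer probe set of Mmp9 and 1 probe set each of Timp2 and Timp4, so 8 of the 9 genes were tested. Signals are linear values per probe set, scaled so that all arrays have the same trimmed mean. They are compared between arrays for 1 probe set at a time, since the binding of different probe sets differs. Trimmed means before scaling differed 1.78-fold between the arrays.

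The arrays also differed in sex-linked transcripts and, on 1 array, in the markers of the retina. Both wild-type arrays and KPAW II at 5 days had a deposited Xist signal of 2.71 to 3.48 with the Y-linked Eif2s3y at the lowest listed value of 0.01. KPAW I at 5 days and all arrays at 1 month had Xist at 0.0548 to 0.115 and Eif2s3y at 0.0882 to 0.191. In wild type, age and the sex-linked markers therefore cannot be told apart. KPAW I at 1 month stood apart, with a summed scaled signal of 6 rod markers of 0.466, against 22.9 to 27.9 on the other arrays of that age.

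Timp3 rose with age in both kinds of eye, on each of its 4 probe sets. Its brightest probe set, 1449335_at, had signals of 0.824 and 0.577 in wild type at 5 days, 0.626 and 0.445 in KPAW at 5 days, 1.54 and 1.72 in wild type at 1 month, and 1.65 and 1.56 in KPAW at 1 month. All 4 arrays at 1 month lay above all 4 at 5 days. The group means were 0.700 ± 0.174 and 0.536 ± 0.128 at 5 days and 1.63 ± 0.129 and 1.60 ± 0.0682 at 1 month, wild type before KPAW (SD, n = 2). From 5 days to 1 month the log2 signal rose by 1.21 ± 0.21 in wild type (SE, adjusted p = 0.0083 by limma) and by 1.56 ± 0.21 in KPAW (adjusted p = 0.00374).

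A second probe set of Timp3, 1419089_at, showed the closest replicates, at 0.381 and 0.387 in wild type and 0.321 and 0.359 in KPAW at 5 days, then 0.847 and 0.847 in wild type and 0.916 and 0.885 in KPAW at 1 month. Its rise was 1.10 ± 0.12 in wild type (adjusted p = 0.00147) and 1.35 ± 0.12 in KPAW (adjusted p = 0.00093). The remaining probe sets, 1419088_at and 1449334_at, rose by 1.18 and 1.32 in wild type and by 1.06 and 1.27 in KPAW. These 4 probe sets report 1 transcript and are not independent of one another. The wild-type call of 1449335_at was lost without wild type II at 5 days (0.96, adjusted p = 0.0603) and without wild type II at 1 month (1.13, adjusted p = 0.0579), and no other call of Timp3 was lost when an array was left out. That of 1449334_at in KPAW was lost with the KPAW groups fitted alone (adjusted p = 0.0504). With KPAW I at 5 days as the only young KPAW array, which carried the same sex-linked markers as the older ones, the 4 rises in KPAW were 1.33, 1.43, 1.20 and 1.05. That comparison rests on 1 young array, which stood apart from KPAW II in Timp1 and in neutrophil and epidermis markers. The same comparison, without KPAW II at 5 days, is given below for Mmp9 and Mmp3, and neither was called in it. The part of sex was not tested. Whole-eye RNA does not separate fewer cells of a type from less RNA per cell. Summed markers of the pigment epithelium (5 genes) moved with Timp3, from 3.79 to 5.03 on the 5-day arrays to 8.95 to 9.81 on the 1-month arrays, and their part in the result was not tested.

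**Figure D1:**
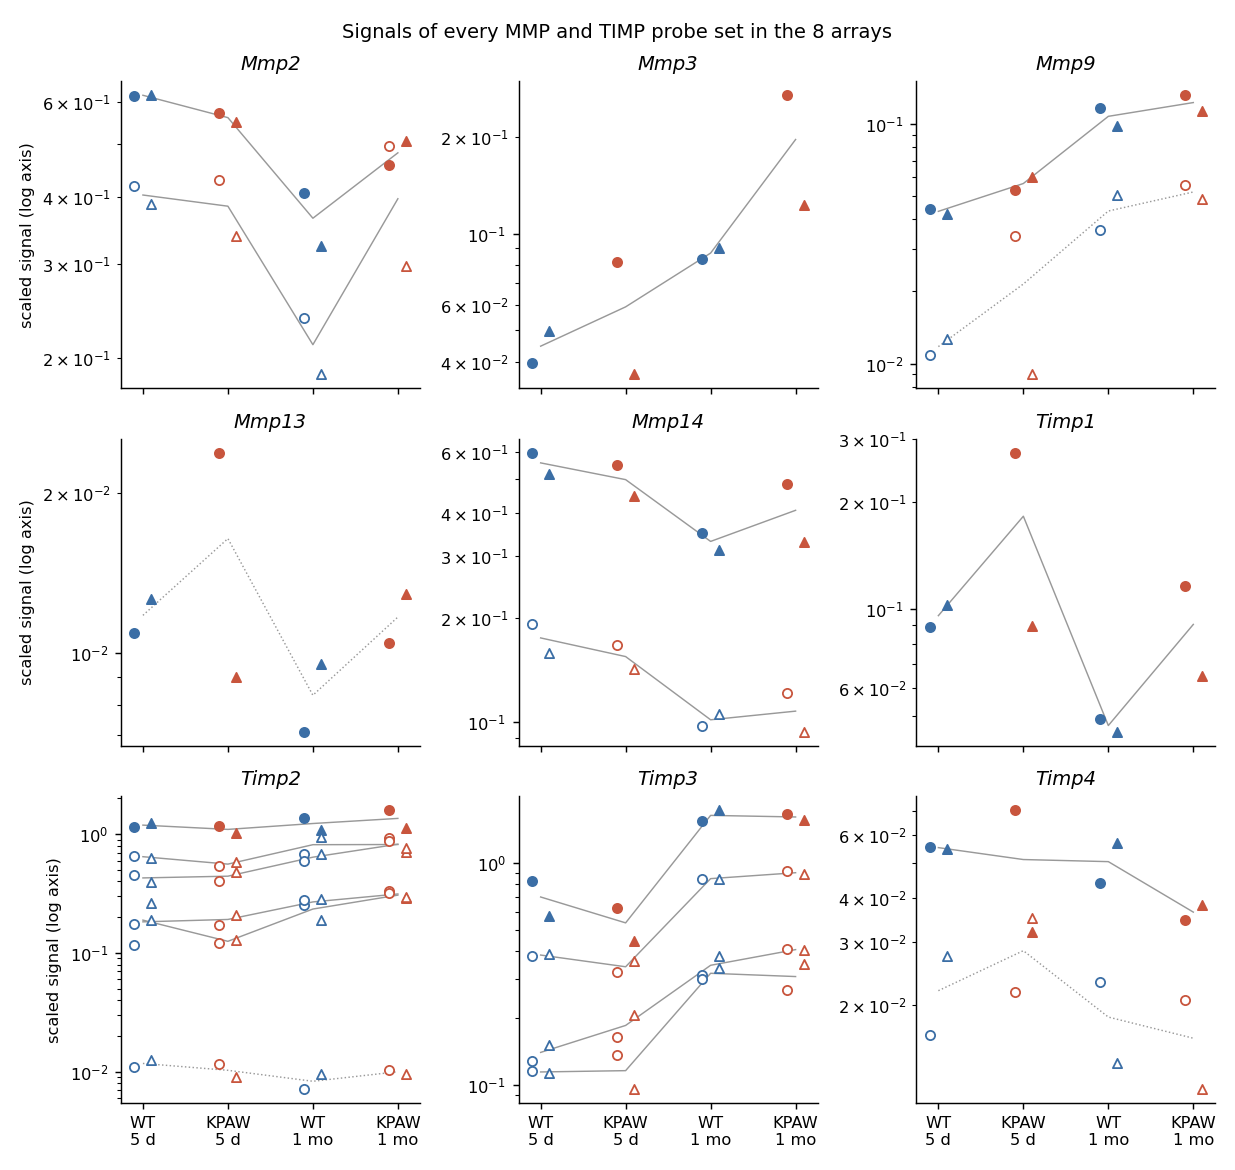
Scaled signal (log axis) of the member probe sets on each of the 8 arrays, by group, with circles for array I, triangles for array II, blue for wild type, red for KPAW, filled points for the brightest probe set of a gene, lines through the group means and dotted lines for probe sets below the filter. The 4 arrays at 1 month lie above the 4 at 5 days for Timp3, Mmp9, Mmp3 and the Timp2 probe sets 1460287_at and 1420924_at. Array I of KPAW lies high at 5 days for Timp1 (0.275) and at 1 month for Mmp3 (0.270).

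Timp2, the inhibitor that also takes part in the activation of proMmp2, was measured by 6 probe sets that differed in what they showed. The brightest, 1454677_at, had signals of 1.15 and 1.23 in wild type and 1.17 and 1.02 in KPAW at 5 days, and 1.36 and 1.09 in wild type and 1.59 and 1.12 in KPAW at 1 month. The groups overlapped, and the log2 differences with age were 0.04 in wild type (adjusted p = 0.914) and 0.28 in KPAW (adjusted p = 0.365). A dimmer probe set, 1460287_at, had 0.457 and 0.399 in wild type and 0.405 and 0.481 in KPAW at 5 days, against 0.594 and 0.686 in wild type and 0.878 and 0.768 in KPAW at 1 month. Its ages did not overlap, and it rose by 0.56 ± 0.16 in wild type (adjusted p = 0.0433) and 0.87 ± 0.16 in KPAW (adjusted p = 0.0111). The wild-type rise of 1460287_at was no longer called when any 1 of the 4 wild-type arrays was left out, with values of 0.456 to 0.658 and adjusted p of 0.0873 to 0.217, nor with median scaling (0.47, adjusted p = 0.0718) or no variance trend (adjusted p = 0.0591). Its KPAW rise was not called on the deposited values (0.89, adjusted p = 0.0643) or with the KPAW groups fitted alone (adjusted p = 0.0571).

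Of the other Timp2 probe sets, 1420924_at rose in KPAW (0.66, adjusted p = 0.029) and gave 0.51 in wild type (adjusted p = 0.0577). Its KPAW call was lost without KPAW I or II at 5 days (0.53 and 0.79, adjusted p = 0.123 and 0.065), KPAW I at 1 month (0.57, adjusted p = 0.0888) or wild type I or II at 5 days (0.66, adjusted p = 0.0559 and 0.0565), on the deposited values (0.68, adjusted p = 0.2) and with the KPAW groups fitted alone (adjusted p = 0.102). The probe set 1450040_at had 0.121 and 0.130 in KPAW at 5 days and 0.320 and 0.294 at 1 month, a rise of 1.16 ± 0.32 (adjusted p = 0.0465). This call was lost without any 1 of the 4 KPAW arrays (1.10 to 1.22, adjusted p = 0.0877 to 0.158) and without wild type I or II at 1 month (1.16, adjusted p = 0.0645 and 0.0643), and with no filter (adjusted p = 0.0615) or no variance trend (adjusted p = 0.0547). In wild type 1450040_at differed 2.23-fold between replicates at 5 days (0.117 and 0.261), and its log2 difference with age was 0.35 (adjusted p = 0.478), or -0.17 without wild type I at 5 days. The probe set 1433662_s_at gave 0.31 in wild type and 0.52 in KPAW, neither called, and 1437081_at was at the lowest listed value on all 8 arrays. Thus 1 of the 5 tested probe sets of Timp2 was called for age in wild type and 3 in KPAW, and the brightest was called in neither.

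Timp1, an inhibitor that is induced by growth factors and cytokines and is low in most resting tissues, stood out on array I of KPAW. Its signals were 0.0892 and 0.103 in wild type at 5 days, 0.275 and 0.0895 in KPAW at 5 days, 0.0490 and 0.0453 in wild type at 1 month, and 0.116 and 0.0649 in KPAW at 1 month. KPAW I and II at 5 days differed 3.07-fold, and only array I lay above the wild type of that age. That array was also the only 5-day array with low Xist and with Eif2s3y above the lowest listed value. Timp1 lies on the X chromosome, and the part of sex in its values was not tested. The log2 differences of Timp1 with age were -0.78 ± 0.42 in wild type (adjusted p = 0.239) and -0.74 ± 0.42 in KPAW (adjusted p = 0.281). With the wild-type groups fitted alone the fall was called by limma (-0.78 ± 0.175, adjusted p = 0.0245). Without KPAW II at 5 days the KPAW value was -1.45 (adjusted p = 0.0429), and without KPAW I at 5 days it was -0.03.

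Timp4, described mainly in heart and brain, was dim, at 0.0556 and 0.0548 in wild type at 5 days, 0.0703 and 0.0320 in KPAW at 5 days, 0.0440 and 0.0569 in wild type at 1 month, and 0.0347 and 0.0382 in KPAW at 1 month. Its differences with age were -0.10 in wild type and -0.28 in KPAW, and neither passed the test. The second Timp4 probe set lay at 0.0116 to 0.0350 and was not tested.

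The gelatinase Mmp2 and the membrane protease Mmp14, which activates it, both fell with age in wild type, on both probe sets of each gene. Mmp2 (1439364_a_at) had signals of 0.617 and 0.618 in wild type at 5 days, 0.572 and 0.550 in KPAW at 5 days, 0.406 and 0.324 in wild type at 1 month, and 0.458 and 0.507 in KPAW at 1 month. The wild-type arrays at 1 month were the lowest of the 8. In wild type its log2 signal fell by 0.74 ± 0.15 (adjusted p = 0.0134), and in KPAW the difference was -0.21 ± 0.15 (adjusted p = 0.37). The dimmer probe set of Mmp2, 1416136_at, had 0.418 and 0.388 in wild type and 0.430 and 0.338 in KPAW at 5 days, then 0.237 and 0.187 in wild type and 0.496 and 0.297 in KPAW at 1 month. It fell by 0.87 ± 0.24 in wild type (adjusted p = 0.0439), while KPAW gave 0.01 ± 0.24 (adjusted p = 0.982). The difference between the 2 kinds of eye in this change was 0.52 ± 0.21 for the brighter and 0.88 ± 0.34 for the dimmer probe set, and neither passed the test (adjusted p = 0.809 for both).

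Mmp14 (1448383_at) had signals of 0.597 and 0.518 in wild type at 5 days, 0.551 and 0.447 in KPAW at 5 days, 0.350 and 0.312 in wild type at 1 month, and 0.485 and 0.329 in KPAW at 1 month. The ages did not overlap in wild type, and in KPAW array I at 1 month lay above array II at 5 days. The fall in wild type was 0.71 ± 0.20 (adjusted p = 0.0455), against -0.30 ± 0.20 in KPAW (adjusted p = 0.362). Its dimmer probe set, 1416572_at, ran from 0.158 to 0.191 in wild type and 0.143 to 0.166 in KPAW at 5 days, and from 0.0937 to 0.121 over all 4 arrays at 1 month. It fell by 0.67 ± 0.17 in wild type (adjusted p = 0.0342) and gave -0.45 ± 0.17 in KPAW (adjusted p = 0.122).

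The falls of Mmp2 and Mmp14 in wild type kept their direction in every setting tried, but their calls did not hold in every setting. The call of Mmp2 1439364_a_at was lost without wild type I or II at 5 days or wild type II at 1 month (-0.74, -0.73 and -0.58, adjusted p = 0.0845, 0.0818 and 0.0738), and those of Mmp2 1416136_at and of both Mmp14 probe sets without any 1 of the 4 wild-type arrays (-1.03 to -0.55). Mmp2 1416136_at and Mmp14 1448383_at also lost theirs without KPAW I or II at 5 days, which enter only through the shared spread (-0.87 and -0.71, adjusted p = 0.0512 to 0.0529). Mmp14 1448383_at was also not called with quantile normalization, no filter or no variance trend (adjusted p = 0.052, 0.0546 and 0.0573), Mmp2 1416136_at with no filter or no variance trend (adjusted p = 0.055 and 0.0535), and Mmp14 1416572_at with no filter (adjusted p = 0.0552). On the signals as deposited, where the median of all probe sets shifted by 0.435 with age in wild type, none of the 4 was called. Relative to that median the deposited values were -0.68 and -0.83 for Mmp2 and -0.66 and -0.67 for Mmp14. Markers of keratocytes and fibroblasts (7 genes, which include the collagen genes Col1a1 and Col3a1) had summed signals of 16.8 to 17.0 in wild type at 5 days, 13.1 to 14.8 in KPAW at 5 days, 7.09 to 7.40 in wild type at 1 month and 10.6 to 14.1 in KPAW at 1 month. Their part in the values of Mmp2 and Mmp14 was not tested.

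Mmp9, the second gelatinase, is made by neutrophils, macrophages and migrating epithelium. It rose with age in both kinds of eye, from 0.0441 and 0.0423 to 0.117 and 0.0985 in wild type and from 0.0528 and 0.0601 to 0.132 and 0.114 in KPAW (1416298_at). All 4 arrays at 1 month lay above all 4 at 5 days. The rise was 1.00 ± 0.17 in wild type (adjusted p = 0.00749) and 0.89 ± 0.17 in KPAW (adjusted p = 0.0135). It was not called in wild type without wild type II at 5 days (0.98, adjusted p = 0.0516) or wild type I at 1 month (0.90, adjusted p = 0.055), nor in KPAW without KPAW I at 5 days (0.82, adjusted p = 0.0556), KPAW II at 5 days (0.96, adjusted p = 0.0567) or KPAW I at 1 month (0.80, adjusted p = 0.0522). Nor was it called in KPAW on the deposited values (0.91, adjusted p = 0.0594) or with the KPAW groups fitted alone (adjusted p = 0.0616). The dimmer probe set, 1448291_at, was at the lowest listed value on 3 of the 5-day arrays and had scaled signals of 0.0360 and 0.0507 in wild type and 0.0554 and 0.0487 in KPAW at 1 month. No fold is given for it.

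Mmp3, or stromelysin 1, which cuts proteoglycans and collagen IV and activates other proenzymes, rose with age in KPAW. Its signals were 0.0396 and 0.0497 in wild type at 5 days, 0.0819 and 0.0365 in KPAW at 5 days, 0.0836 and 0.0905 in wild type at 1 month, and 0.270 and 0.123 in KPAW at 1 month. Both KPAW arrays at 1 month lay above the other 6, and their 2 values differed 2.20-fold. The rise in KPAW was 1.41 ± 0.37 (adjusted p = 0.0402) and the wild-type difference 0.72 ± 0.37 (adjusted p = 0.212), with a difference between them of 0.69 ± 0.52 (adjusted p = 0.817). In wild type the ages did not overlap, and all 4 arrays at 1 month lay above all 4 at 5 days. The wild-type rise was called by limma with the wild-type groups fitted alone (0.72 ± 0.18, adjusted p = 0.0359). It was also called on the deposited values (1.11, adjusted p = 0.0123), where the median of all probe sets shifted by 0.435. The KPAW call was lost without KPAW I at 1 month (0.90, adjusted p = 0.138), without KPAW II at 5 days (0.99, adjusted p = 0.211) and without any 1 of the 4 wild-type arrays (1.41, adjusted p = 0.0641 to 0.0725), which enter only through the shared spread. It was also lost with no filter (adjusted p = 0.0581) and with the KPAW groups fitted alone (adjusted p = 0.125). Mmp13, a collagenase of cartilage and bone, was at the lowest listed value of 0.01 on 6 arrays, and its deposited signal was 0.0205 in KPAW I at 5 days and 0.0135 in KPAW II at 1 month.

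**Figure D2:**
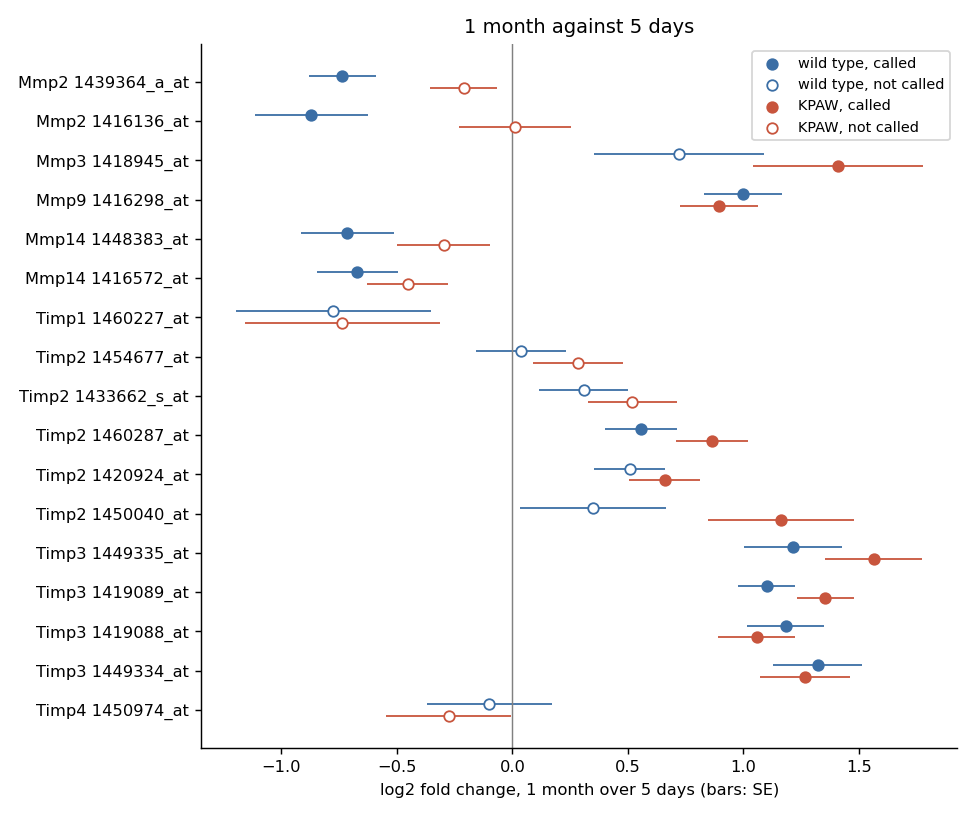
Log2 fold change from 5 days to 1 month of the 17 tested member probe sets in wild type and in KPAW, with bars of 1 SE and filled points where the adjusted p was under 0.05. All 4 Timp3 probe sets lie between 1.06 and 1.56 in both kinds of eye, and the 4 probe sets of Mmp2 and Mmp14 lie between -0.87 and -0.67 in wild type.

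Over all 17 tested member probe sets, 10 were called for age in wild type, 6 higher and 4 lower, where 18.1% of all 15838 tested probe sets were called (8.73% higher and 9.33% lower). The 6 that rose were the 4 of Timp3, 1 of Timp2 and 1 of Mmp9, and the 4 that fell were those of Mmp2 and Mmp14. In KPAW 9 were called, all higher, where 14.3% of all probe sets were called (6.76% higher and 7.51% lower). These were the 4 of Timp3, 3 of Timp2, Mmp9 and Mmp3. The 17 had a median log2 change of 0.35 in wild type, against -0.00 over all probe sets, and of 0.66 in KPAW, against -0.04. The ages did not overlap for 14 of the 17 in wild type, 9 higher and 5 lower at 1 month, where 65.5% of all probe sets did not overlap (32.5% higher and 33% lower). In KPAW they did not overlap for 12, 10 higher and 2 lower, against 57.6% of all (25.3% higher and 32.2% lower). Counted by role, 5 of 11 inhibitor probe sets were called higher and none lower in wild type, against 1 higher and 4 lower of 6 for proteases. In KPAW none was called lower in either role, with 7 of 11 higher for inhibitors and 2 of 6 for proteases. With 1 probe set per gene, 1 inhibitor of 4, Timp3, was called in wild type and in KPAW. Of 4 tested proteases, 3 were called in wild type (1 higher and 2 lower) and 2 in KPAW (2 higher and 0 lower). Over all 9492 genes so tested, 1804 were called in wild type and 1443 in KPAW. Leaving out a wild-type array left 3 to 5 calls in wild type (5 and 3 without I and II at 5 days, 5 and 4 without I and II at 1 month), and 5 were made in KPAW without KPAW I at 1 month. The comparisons with wild type at 1 month below share arrays with this one.

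KPAW and wild-type eyes did not differ in a member past the test at either age. At 1 month none of the 17 was called by limma, where 0.0253% of all probe sets were (0.0126% higher and 0.0126% lower), and 1100 probe sets had an unadjusted p under 0.05. The highest log2 difference was that of Mmp3, at 0.92 ± 0.37 (adjusted p = 0.675), with both KPAW arrays (0.270 and 0.123) above both wild-type arrays (0.0836 and 0.0905). Leaving out KPAW I at 1 month gave 0.41 for Mmp3. Mmp2 gave 0.39 ± 0.15 (1439364_a_at, adjusted p = 0.675) and 0.81 ± 0.24 (1416136_at, adjusted p = 0.643), and the KPAW arrays lay above the wild-type arrays on both probe sets. The second value was 1.16 without KPAW II at 1 month (adjusted p = 0.0306) and 0.45 without KPAW I.

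Mmp14 gave 0.26 ± 0.20 (adjusted p = 0.737) and was -0.01 without KPAW I at 1 month. Mmp9 gave 0.16 ± 0.17 (adjusted p = 0.799). Among the inhibitors Timp1 gave 0.67 ± 0.42 (adjusted p = 0.698), with KPAW at 0.116 and 0.0649 above wild type at 0.0490 and 0.0453. Without KPAW I the Timp1 value was 0.33. Timp2 (1454677_at), Timp3 (1449335_at) and Timp4 gave 0.13, -0.02 and -0.31, and none passed the test. The groups did not overlap for 10 of the 17 probe sets, 9 higher and 1 lower in KPAW, against 36.5% of all probe sets (17.0% higher and 19.6% lower). Several of these report the same gene. With 1 probe set per gene, 2 of 4 tested proteases lay higher and 0 lower, and 1 of 4 inhibitors lay higher and 1 lower. Over all 9492 genes so tested, 1729 lay higher and 1737 lower. The median of the 17 was 0.21, and that of all probe sets -0.01.

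**Figure D3:**
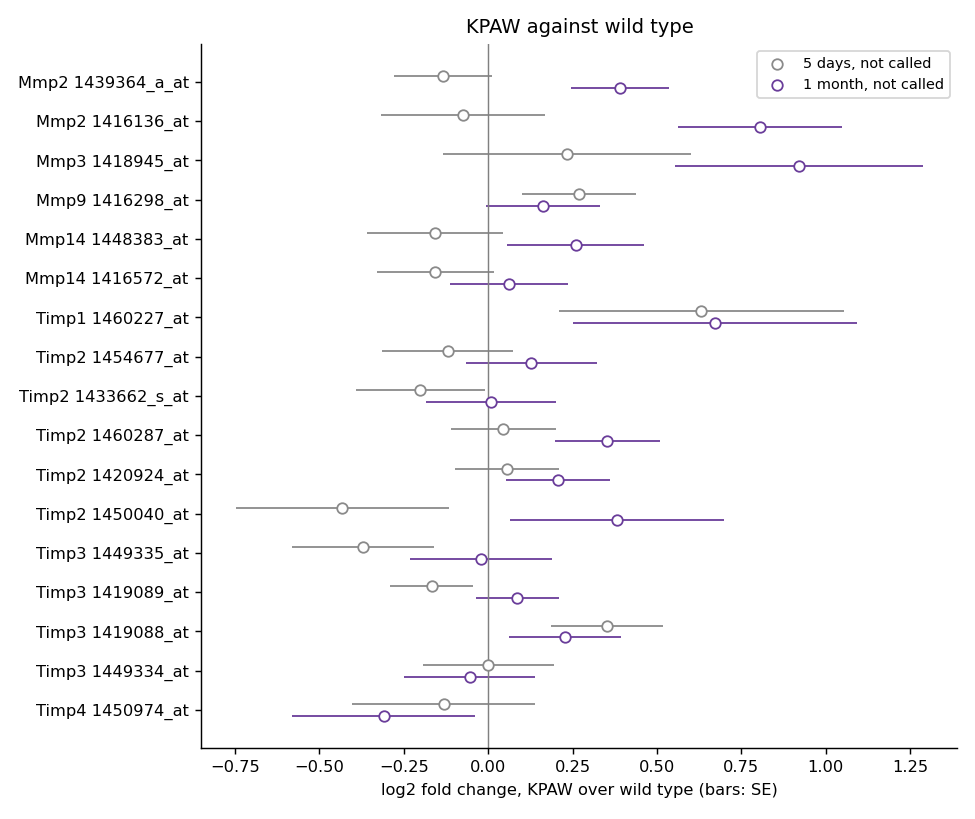
Log2 difference between KPAW and wild type of the 17 tested member probe sets at 5 days and at 1 month, with bars of 1 SE and open points because none passed the test. At 1 month Mmp3 (0.92), Mmp2 1416136_at (0.81) and Timp1 (0.67) lie highest.

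At 5 days none of the 17 was called, as none of all 15838 probe sets was (0% of them, with 378 at an unadjusted p under 0.05 by limma). The members' differences ran from -0.43 to 0.63, with a median of -0.12, against 0.01 over all probe sets. The groups did not overlap for 5 of the 17, 2 higher and 3 lower in KPAW, where 33.5% of all did not overlap (16.8% higher and 16.6% lower). Timp1 gave 0.63 ± 0.42 and rested on KPAW I: it was -0.08 without that array and 1.34 without KPAW II. KPAW I also differed from the other 5-day arrays in the sex-linked markers. Mmp9, with 0.0528 and 0.0601 in KPAW above 0.0441 and 0.0423 in wild type, gave 0.27 ± 0.17. Mmp3 gave 0.23, Mmp2 -0.13, Mmp14 -0.16, Timp2 -0.12, Timp3 -0.37 and Timp4 -0.13, each on its brightest probe set. None of the 17 passed the test of a change in the KPAW difference between the ages (0% of all probe sets, 932 with an unadjusted p under 0.05 by limma), and the values ran from -0.18 to 0.88.

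KPAW I stood apart from KPAW II at both ages in neutrophil and epidermis markers, as well as in Timp1 and Mmp3. At 5 days KPAW I and II were close in markers of corneal epithelium (2.57 and 2.55) and rods (5.56 and 5.03). The wild-type arrays I and II at 5 days differed in epidermis markers as well. Mmp3 differed 2.24-fold between KPAW I and II at 5 days (0.0819 and 0.0365) and 2.20-fold at 1 month. Neutrophil markers (9 genes) summed to 1.56 in KPAW I and 0.302 in KPAW II at 5 days, to 2.44 and 0.766 at 1 month, and to between 0.280 and 0.473 in wild type. Of this list, S100a9 and S100a8 had 0.498 and 0.271 in KPAW I at 5 days, against at most 0.019 and 0.026 on the other arrays of that age. Of its 6 tested genes, 1 lay higher in KPAW without overlap and 0 lower at 5 days. At 1 month 4 lay higher and 1 lower, with log2 differences of -0.29 to 3.14, and none was called. Over all 9492 genes so tested, 1410 lay higher and 1788 lower at 5 days, and 1729 and 1737 at 1 month. Camp was at the lowest listed value on 7 of 8 arrays. Epidermis markers (9 genes) summed to 26.2 and 14.5 in KPAW and 5.53 and 5.50 in wild type at 1 month, and to 9.85 and 0.954 in KPAW and 5.92 and 1.44 in wild type at 5 days. Of these, Ivl was at the lowest listed value on all 8 arrays. Macrophage and microglia markers (13 genes) ran from 2.08 to 2.91 in KPAW and 1.58 to 1.74 in wild type at 1 month. Corneal epithelium markers (4 genes), at 17.0 and 19.5 in wild type at 1 month, were at 5.17 and 12.1 in KPAW. The part of these cells in the values of Mmp3, Mmp9 and Timp1 was not tested. With KPAW I left out at both ages, the difference with age in KPAW, then 1 array against 1, was 1.32 for Mmp3 and 0.73 for Mmp9. Any p for these would rest on the spread of the wild-type arrays alone, so none is given.

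**Figure D4:**
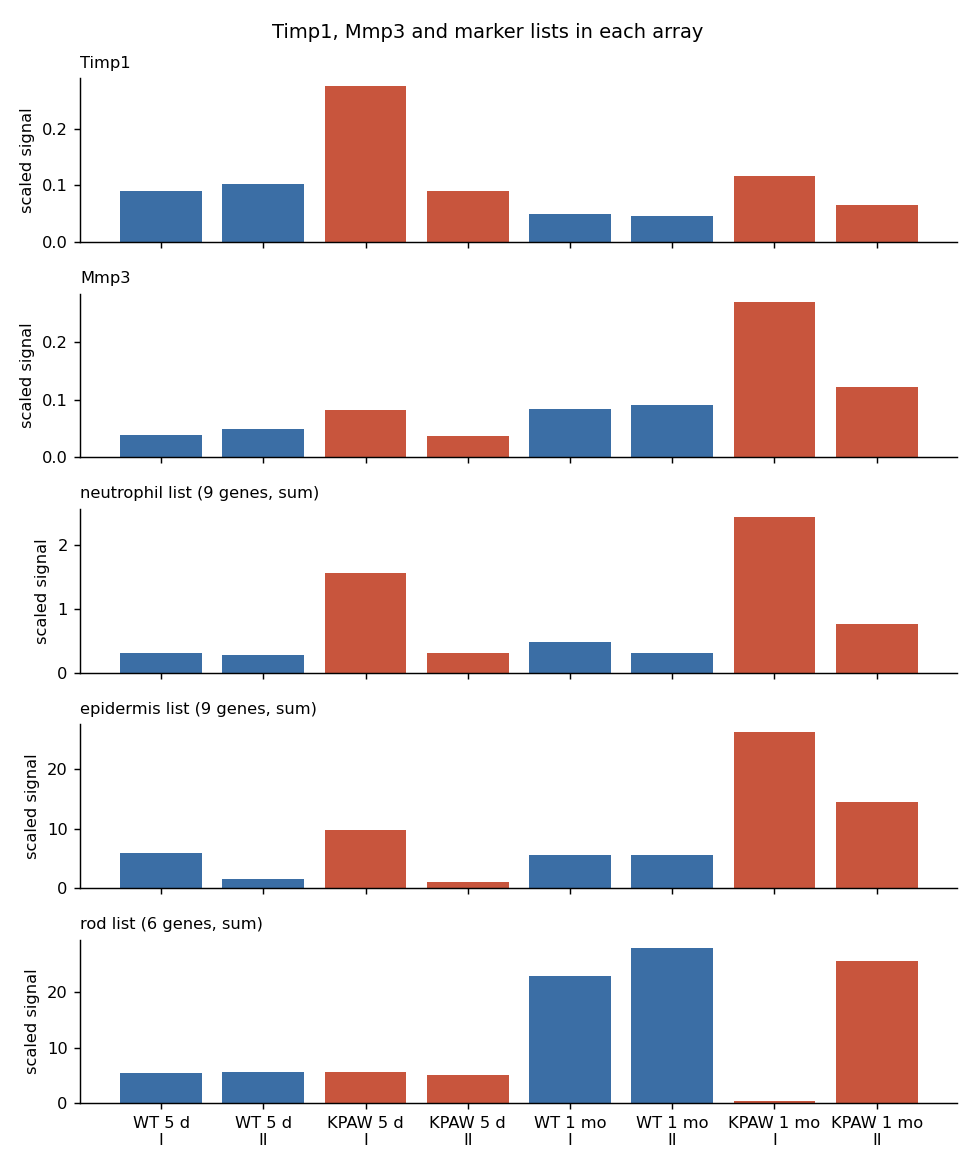
Scaled signal of Timp1 and Mmp3 and summed scaled signal of the neutrophil, epidermis and rod marker lists, as 1 bar for each of the 8 arrays (blue for wild type, red for KPAW, axes from 0). The neutrophil sum is highest in KPAW I at both ages (1.56 and 2.44), and the rod sum of KPAW I at 1 month (0.466) is the lowest of the 8.

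The other genes of the system were taken from lists of related proteases, activators, inducers and substrates, with 1 probe set per gene. Of all 9492 genes so tested, 1804 were called for age in wild type (828 higher and 976 lower) and 1443 in KPAW (731 higher and 712 lower), so 2 or 3 calls in a list of 13 are near that background. Of 18 other matrix metalloproteases, 13 were on the array and 6 were tested. Mmp23 and Mmp24 fell with age, by 0.85 and 0.84 in wild type and by 0.75 and 0.68 in KPAW, and none rose. Of 13 tested ADAM and ADAMTS proteases, which shed proteins from the cell surface or cut proteoglycans, Adam10 (-0.98) and Adam19 (-0.82) fell in wild type. In KPAW Adam12 (-1.19) and Adam19 (-0.66) fell and Adam15 rose (0.79). Mmp12, the macrophage elastase, lay below the filter and was picked out after its values were seen: it had scaled signals of 0.0247 and 0.0278 in KPAW at 1 month and was at the lowest listed value on 5 of the other 6 arrays.

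Most matrix genes whose products these proteases cut fell with age in wild type. Of 16 tested substrates, 14 fell in wild type and none rose, among them Col1a1 (-2.29), Eln (-2.21), Col5a1 (-2.17) and Col2a1 (-1.72), and the median was -1.22. In KPAW 6 fell, among them Col2a1 (-1.72) and Eln (-1.67), and Dcn rose (0.89), with a median of -0.42. At 1 month the substrates had a median of 0.46 in KPAW against wild type, and none passed the test. The largest values were Col1a1 (1.17) and Col3a1 (1.13). The median age change of all 9492 genes was -0.01 in wild type and -0.03 in KPAW.

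Among the inducers of protease transcription, 13 were tested. Fos and Junb, whose products bind the AP-1 letters seen in the Mmp3 promoter, rose by 1.95 and 1.33 in wild type and by 1.59 and 1.16 in KPAW. Fosl2 rose in wild type (0.95), while Ets1 (-1.33 and -0.94) and Jun (-0.57 and -0.67) fell. Fosl1, of the same family as Fos, gave -1.03 in wild type and 0.15 in KPAW, and neither was called. The share of Fos in the level of Mmp3 was not tested. Il1b gave 1.44 and Lcn2, whose protein binds Mmp9, gave 1.74 in KPAW against wild type at 1 month, and neither was called. Both were highest on KPAW I at 1 month, where Lcn2 had 0.423 and Il1b 0.319, against 0.0509 and 0.100 on KPAW II. The wild-type arrays of that age had 0.0343 and 0.0307 for Lcn2 and 0.0558 and 0.0518 for Il1b. Lcn2 was at the lowest listed value on 2 arrays and passed the filter on low signal only through KPAW I at 1 month. Its value of 1.74 therefore rests on the array that let it into the test. Of 14 tested activators and other inhibitors, Cd44 (1.00) and Bsg (0.53), a membrane glycoprotein that induces metalloproteases, rose in wild type and Thbs2 (-1.72) fell. In KPAW Bsg rose (0.61) and Thbs2 fell (-0.84). The synapsin genes around Timp1 and Timp4 were not called for age: Syn1 gave 0.29 and Syn2 0.38 in wild type, and Syn3, the host of Timp3, lay below the filter.

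**Figure D5:**
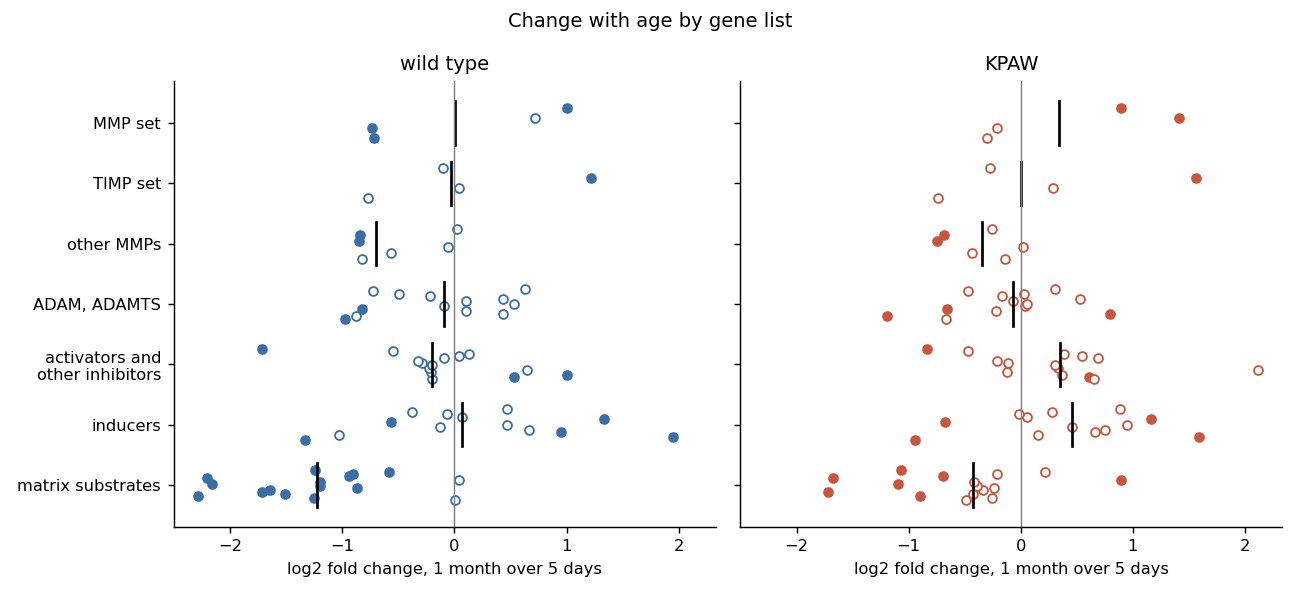
Log2 fold change from 5 days to 1 month of each tested gene in the lists of proteases, inhibitors, activators, inducers and substrates, in wild type and in KPAW, with filled points where the adjusted p was under 0.05 1 probe set per gene and a black line at the median of each list. In wild type 14 of 16 matrix substrates are called lower, with a median of -1.22.

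The genes whose pattern over the 8 arrays was most like that of each member were ranked by Pearson's r of the log2 signals among 9491 other genes, as a description without a test. The arrays share 2 ages, which sets much of each value. Timp3 was most like Gas6 (0.991) and Ptp4a2 (0.990), Mmp9 most like Clcn7 and Serpinb8 (both 0.989), Mmp14 most like Nfib (0.987) and the collagen gene Col18a1 (0.977), Mmp2 most like Dkk2 (0.985) and Lsm3 (0.983), and Mmp3 most like Glipr1 (0.982) and Xbp1 (0.979). Timp2 (0.967 with Rnpepl1), Timp4 (0.950 with Mrpl45) and Timp1 (0.947 with Ier5) had less similar neighbours. The number of genes above 0.9 was 477 for Mmp9 and 476 for Timp3, against 12 for Timp1, 18 for Timp2 and 5 for Timp4, the 3 inhibitors whose brightest probe sets were not called for age.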

How the data were processed

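RNA of whole eyes was measured on 8 arrays in 4 groups. Per the file headers, the authors deposited 1 signal per probe set and array, made with software not given in the sources used here. The signal was read as linear from its long upper tail: none lay below 0.01, and the highest was 11.1. Array medians after scaling were 0.0844 to 0.0916. The scale itself was not stated in those sources, and this reading was not tested. All columns mapped to a sample, and 64 control probe sets were left out. Gene symbols came from the platform annotation. Arrays were scaled to a common trimmed mean (2% off each end), and turned into log2(signal + 0.0211), a pseudocount at the 20th percentile. Of 22626 probe sets, 15838 had a mean above the filter at the 30th percentile (0.0406). Such fold changes understate changes of dim probe sets. One limma model (limma 3.58.1, R 4.3.3) with 4 group means, a variance trend and 4 residual degrees of freedom was fitted, and a call is a Benjamini-Hochberg adjusted p under 0.05 over all 15838. The number of arrays limits the precision.

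All member probe sets are named. From each list, up to 4 genes with the largest change are named, with the brightest probe set standing for a gene. Adam15, Fosl2, Jun, Bsg, Dcn and Mmp12 fall outside this rule and were picked after their values were seen. The members and lists were chosen with earlier results of these data known. On simulated data of 15838 probe sets, the model recovered 68% of 50 probe sets changed by 1 on the log2 scale for age in wild type and 72% for KPAW at 1 month, and called 15 and 13 unchanged probe sets. The simulated noise had the same spread on every array, whereas KPAW I and II differed here. On the real arrays 6 rod markers with a median of -3.21 for KPAW at 1 month were not called. The simulated shares therefore do not give the recovery on these arrays, and an uncalled difference is not shown to be absent. Alternatives were other scalings, the deposited values, pseudocounts and filters, no trend, a replicate block, the contrast's groups alone and leaving out each array. Leaving out KPAW I at both ages was chosen after seeing the data. Tables and plots used Python 3.11.15, pandas 2.3.3 and matplotlib 3.10.9.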

Additional observations from a re-analysis of the deposited data

Results flagged for a closer look

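A pair of probe sets drew attention because every KPAW array lay on one side of the wild type at 5 days and on the other at 1 month. For Mmp2 (1439364_a_at) both KPAW arrays lay below both wild-type arrays at 5 days and above them at 1 month. The test of that change gave 0.52 ± 0.21 (SE, log2) and did not pass (adjusted p = 0.809). Timp3 (1419089_at) showed the same order of groups, and its change of 0.25 ± 0.17 did not pass either (adjusted p = 0.816). The pair came from 17 tested member probe sets. Of all probe sets, 16.6% lay lower in KPAW without overlap at 5 days and 17% lay higher at 1 month. The share that changed sides was not counted, so the pair is not shown to exceed the background.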

How the results depend on the processing

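The rises of Timp3 with age and the falls of Mmp2 and Mmp14 in wild type kept their direction in every alternative tried. Without 1 array at a time, or without KPAW I at both ages, members called were 3 to 13 for age in wild type (10 with all arrays), 5 to 8 for age in KPAW (9), and 0 to 1 for KPAW at 1 month (0). Over all probe sets they were 848 to 3799 (2860), 733 to 2173 (2259) and 0 to 562 (4), with 0 to 27 (0) for KPAW at 5 days and 0 to 306 (0) for the change between ages.

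For KPAW at 1 month, 99 probe sets were called on the values as deposited, 2 with the pseudocount at the 5th percentile, 2 with the filter at the 50th percentile and 19 with the groups of the contrast alone. With the groups alone, 4 members and 604 probe sets were called for age in KPAW. A fit of the groups alone cannot be made for the change between ages. On the values as deposited the median of all probe sets shifted by 0.435 for age in wild type, -0.261 for KPAW at 1 month and 0.183 for KPAW at 5 days. For age in wild type 90.8% of calls were then higher, against 48.3%, with 9 members higher and 0 lower. With median scaling 37.4% were higher, and for age in KPAW 65% were on the deposited values, against 47.4%. The deposited values also gave 1343 calls for age in KPAW and 36 for the change between ages.

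The labels do not say that I and II pair arrays across groups, and the arrays were not treated as paired: the deviations of array I correlated at -0.017 to 0.309 over the 6 pairs of groups. With the replicate block, 13 probe sets were called for KPAW at 1 month, and members called for age were 9 in wild type and 8 in KPAW, without Timp2 1460287_at (adjusted p = 0.0554) and Timp2 1450040_at (adjusted p = 0.0542).

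On the deposited values signs turned for KPAW at 1 month in Mmp9 (-0.080), Mmp14 (-0.0081), Timp2 1454677_at (-0.15) and Timp3 1419089_at (-0.19), and at 5 days in Mmp2 (0.059 and 0.11), Mmp14 (0.033), Timp2 (0.076) and Timp3 1419089_at (0.022). They also turned for the change between ages in Timp1 (-0.32) and Timp3 1419089_at (-0.21) and for age in wild type in Timp4 (0.26). Median scaling turned Timp3 1449335_at at 1 month (0.013) and Timp2 1454677_at with age in wild type (-0.053), and the pseudocount at the 50th percentile turned Timp1 for the change between ages (-0.079). Leaving out arrays turned, at 1 month, Mmp14 (-0.0063 to 0.52), Timp2 1454677_at (-0.12 to 0.38) and Timp3 1449335_at (-0.10 to 0.058). At 5 days it turned Mmp2 1416136_at (-0.24 to 0.092), Mmp3 (-0.19 to 0.65), Timp1 (-0.078 to 1.34) and Timp4 (-0.52 to 0.26), and for the change between ages Timp1 (-0.67 to 0.75). With age it turned Timp2 1450040_at (-0.17 to 0.86), Timp2 1454677_at (-0.12 to 0.19) and Timp4 (-0.23 to 0.032) in wild type and Mmp2 1416136_at (-0.34 to 0.36) and Timp4 (-0.67 to 0.16) in KPAW. The cause of these changes was not tested. None of these values was called in the fit of all arrays.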
